A study of Saccharomyces cerevisiae with 8 samples.

Results

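Genes named for proteins of the mitochondrial ribosome were followed in RNA sequencing libraries of the budding yeast Saccharomyces cerevisiae, 72 nuclear genes in all. They were chosen by name: every gene called MRP, MRPL, MRPS or RSM followed by a number, plus IMG1, IMG2, MNP1, YML6 and NAM9. These are 72 of the 7126 genes in the count table, and all 72 had enough reads to enter the test, which covered 6174 genes. The reference gene table gives 70 of them a ribosomal protein name, 28 in the small and 42 in the large subunit. The other 2, MRP8 and RSM22, carry no such name. RSM22 resembles methyltransferases. MRP8 was grouped with the ribosome when it was first named and is not classed as a subunit of it. Both stay among the 72 genes counted below. Of the small-subunit proteins 18 have a bacterial counterpart and 10 do not, and of the large-subunit proteins 27 have one and 15 do not.

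The study grew a mutation strain and a control strain, both labelled BY4741, a laboratory strain, in synthetic medium without uracil (SC-Ura), with or without hydrogen peroxide, to mid-exponential phase. The 4 groups of 2 libraries each are the mutation strain titled HP, the control strain titled HP, the mutation strain titled nHP and the control strain titled nHP. The mutation strain is labelled as having improved oxidation stress tolerance. The sources used here do not give the mutated gene or say whether the strain is 1 clone. The medium entry of the labels names peroxide for all 4 control libraries and its absence for all 4 mutation libraries, whatever the title says, while the study's design text describes both media for both strains. The grouping here goes by title, so HP and nHP stand for what the titles say and no more. If the medium entry were right, strain and peroxide could not be told apart. Nothing says that the 2 libraries of a group came from separate cultures, so the p-values reflect no more than how much these libraries spread.

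Library totals ran from 8296523 to 11202362 counts, and the 72 genes held 0.547% to 0.641% of them. A single one of the 72 genes had between 48 and 3665 counts in a library, with a median of 700.5. LEU2 and MET17, which BY4741 lacks, had 0 counts in all 8 libraries, so up to 3 counts per library cannot be told from 0. URA3, needed for growth without uracil, ran from 1801 to 4205 CPM (counts scaled to a common library size after correction for composition). In RNA from whole cultures, fewer cells with a transcript and less of it per cell cannot be told apart.

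Mitochondria translate a handful of proteins of the respiratory chain and the ATP synthase from their own genome, on ribosomes that descend from those of bacteria. Nearly all proteins of these ribosomes are encoded in the nucleus, made in the cytosol and imported. In yeast, many of the mRNAs carry in their 3′ untranslated region a binding element for Puf3, an RNA-binding protein known to control the stability, location and translation of mRNAs for mitochondrial biogenesis. Growth on carbon sources that must be respired is known to raise many of these mRNAs, and cytosolic ribosomal protein genes follow a separate set of regulators.

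The letters of the Puf3 element were shared by nearly all of the 72 genes, and the choice by name did not use them. TGTANATA was searched on the sense strand in the 250 bases after each stop codon, in the R64 reference genome from RefSeq, whether or not the next gene began within them. It was present in 70 of the 72 genes (97.2%), against 909 of 5994 protein-coding genes in all (15.2%). All 28 small-subunit and all 42 large-subunit genes had it, and the 2 genes without were RSM22 and MRP8, the same 2 that have no ribosomal protein name. The reverse complement of the letters, which can share bases with an element, was present in 15 of the 72 genes (20.8%) and in 14.6% of all genes. A match is a description of letters, not a site of binding or a cause of anything below.

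The elements of 8 genes are shown because their values are described below, RSM10 to MRPL50 as genes that passed the test and MRPS12 and MRPL38 as the most and least abundant of the ribosomal proteins. Each line gives 24 bases, 5′ to 3′ on the strand of the mRNA, and capitals mark the 8 bases of the element.
RSM10: ttcgtactTGTAAATAaaataggt
RSM7: aacttgccTGTACATAaacacatt
MRPL28: tctcctgcTGTAAATAactgatga
MRPS16: atcagactTGTAAATAatacatct
IMG1: ccatctccTGTATATAagaaaaat
MRPL50: tacaatctTGTATATAggcaacat
MRPS12: caacctttTGTAAATAgcaatgac
MRPL38: taaccaccTGTATATAttgcttaa
In R64 coordinates the printed bases lie at chrIV:540465-540488 on the plus strand for RSM10, chrX:638195-638218 on the minus strand for RSM7 and chrIV:1386540-1386563 on the plus strand for MRPL28. They lie at chrXVI:528843-528866 for MRPS16, chrIII:209866-209889 for IMG1, chrXIV:669722-669745 for MRPL50 and chrXIV:694272-694295 for MRPS12, all on the minus strand, and at chrXI:131138-131161 on the plus strand for MRPL38. All 8 stretches start after the stop codon, with the element 22 bases from it in RSM7, 32 in MRPL28, 33 in IMG1, 37 in MRPL50, 59 in RSM10, 74 in MRPS12, 96 in MRPL38 and 127 in MRPS16. MRPL28 and MRPS16 each have a second element in the window, at 88 and 86 bases, which is not printed, and for MRPS16 the one preceded by C is shown.

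The 70 genes held 86 elements, 56 genes having 1, 12 having 2 and 2 having 3. The variable base was most often A, with TGTAAATA at 39 elements, TGTATATA at 28 and TGTACATA at 18. TGTAGATA occurred once, in MRPL3. The elements began a median of 55.5 bases after the stop codon (8 to 238), and 77 of the 86 lay within 100 bases of it. A C at the second base before the element, as in RSM10 and IMG1 above, accompanied an element in 55 of the 72 genes (76.4%), against 4.45% of all protein-coding genes.

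Other genes of mitochondrial translation carried the element too. It was present in all 14 mitochondrial aminoacyl-tRNA synthetase genes, in 13 of 15 genes for assembly of the mitochondrial ribosome and its rRNA, in 14 of 18 translational activators and in 9 of 13 translation factors. The 6 nuclear genes followed here for mitoribosomal proteins under other names (MRX14, MHR1, RML2, SWS2, PET123 and RTC6) all had it. These lists hold the genes followed and need not be complete. The nuclear genes of the respiratory chain and ATP synthase had it in 8 of 42 cases (19.0%), ribosome biogenesis genes in 15.5% and cytosolic ribosomal protein genes in 7 of 132 cases (5.30%). In promoters, taken as 250 bases before to 50 after the start codon and read on both strands, the 72 genes stood near all genes. AATTTT, the core of the RRPE element and found in 99.0% of ribosome biogenesis genes, was present in 43.1% of the 72 genes and in 51.7% of all genes. CCAAT, the core of the Hap complex element and found in 83.3% of respiratory chain genes, was present in 41.7% and 43.2%. TTACTAA or TTAGTAA, a pair of Yap1 elements that are each other's reverse complement, was present in 5.56% and 7.47%, and AGGGG, the stress response element, in 18.1% and 21.7%.

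**Figure D1:**
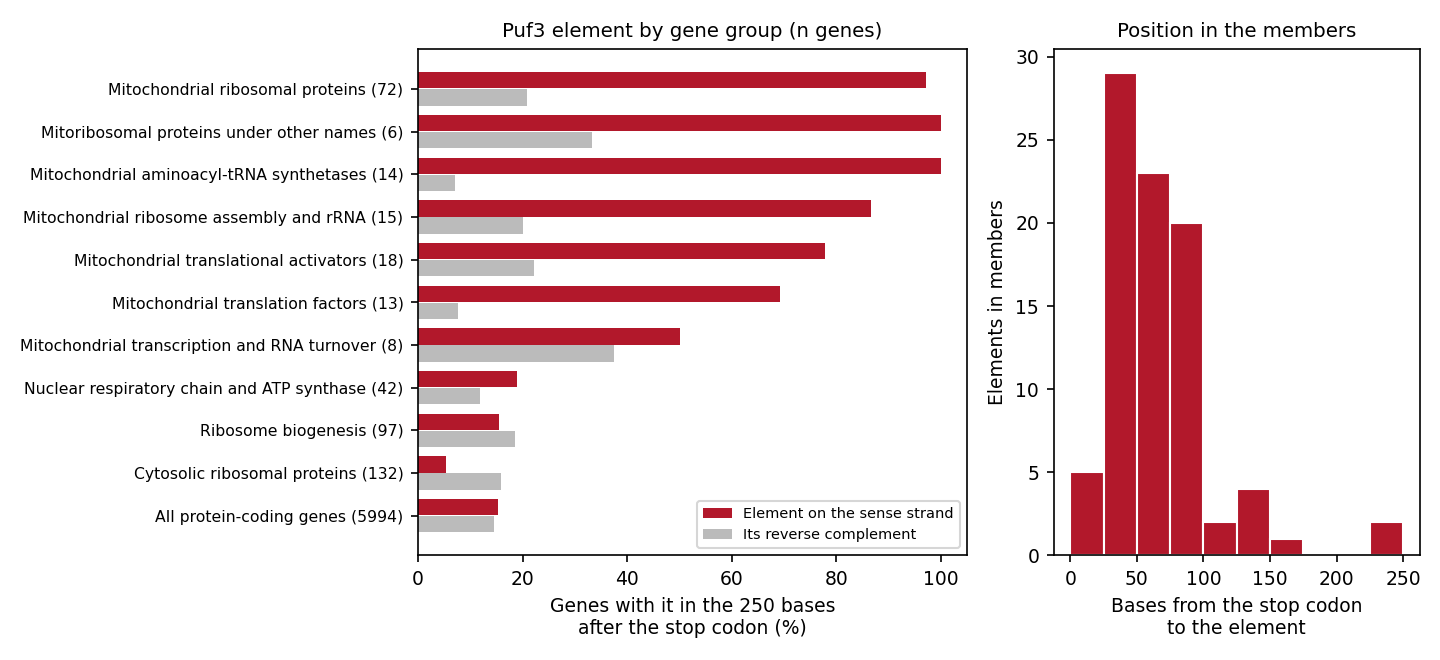
Left, share of genes (%) with the Puf3 element (red) or its reverse complement (grey) in the 250 bases after the stop codon, by gene group, with the number of genes in brackets. The mitochondrial ribosomal proteins stood at 97.2% for the element and 20.8% for its reverse complement, against 15.2% and 14.6% of all protein-coding genes. Right, number of elements in the 72 genes by distance from the stop codon in bins of 25 bases.

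Per length of gene, the 72 transcripts had a median above that of all genes tested. Their median over the 8 libraries was 112 RPKM (reads per kilobase of gene, scaled by library total, as deposited), against 59.0 RPKM for all genes tested, and 67 of the 72 stood above that. The small-subunit genes had a median of 117 RPKM and the large-subunit genes 107 RPKM. The nuclear respiratory chain and ATP synthase genes had a median of 389 RPKM and the cytosolic ribosomal protein genes 1138 RPKM. Of the 72, 61 lay within 2-fold of their median.

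MRPS12, the uS12m protein of the decoding centre, was the most abundant at 488 ± 48.7 RPKM (SD over 8 libraries, 391 to 545). MRP8 followed at 428 ± 61.2 RPKM and MRPS16, bS16m, at 343 ± 54.3 RPKM. The ranges of these 3 over the libraries overlapped. Within single libraries MRPS12 stood above MRP8 in 7 of 8 and above MRPS16 in 8 of 8, and MRP8 stood above MRPS16 in 7 of 8. MRPL38, uL14m of the large subunit, was the least abundant at 15.3 ± 3.96 RPKM (11.4 to 24.3), and all its libraries lay below the range of the next gene up, MRPL51 (mL43), at 45.4 ± 7.70 RPKM. RSM22 came next above MRPL51 at 48.4 ± 3.28 RPKM. MRPL38 rests on 48 to 92 counts per library, and an open reading frame next to it on the opposite strand, YKL169C, had 10 to 30 counts. MRPL51 overlaps YPR099C on the opposite strand by 323 bases, and the sources used here do not give the strand setting of the counting, so reads of such partners cannot be told apart.

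Other proteins followed for their place or history stood between 51.7 and 194 RPKM. MRP20 (uL23m, at the exit of the peptide tunnel) stood at 194 ± 22.4 RPKM, MRPL32 (bL32m, which is matured by the m-AAA protease) at 112 ± 10.6 RPKM and IMG2 (mL49) at 115 ± 12.2 RPKM. MRP1 (mS43) and RSM26 (mS42), a pair of small-subunit proteins that resemble superoxide dismutases, stood at 111 ± 4.84 and 98.4 ± 5.78 RPKM. YML6 (uL4m) had 93.0 ± 8.22 RPKM, NAM9 (uS4m) 90.1 ± 4.63 RPKM and MNP1 (bL12m, the stalk protein) 51.7 ± 4.17 RPKM (SD over 8 libraries each). The stalk protein, of which a ribosome carries several copies, stood lowest among these.

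**Figure D2:**
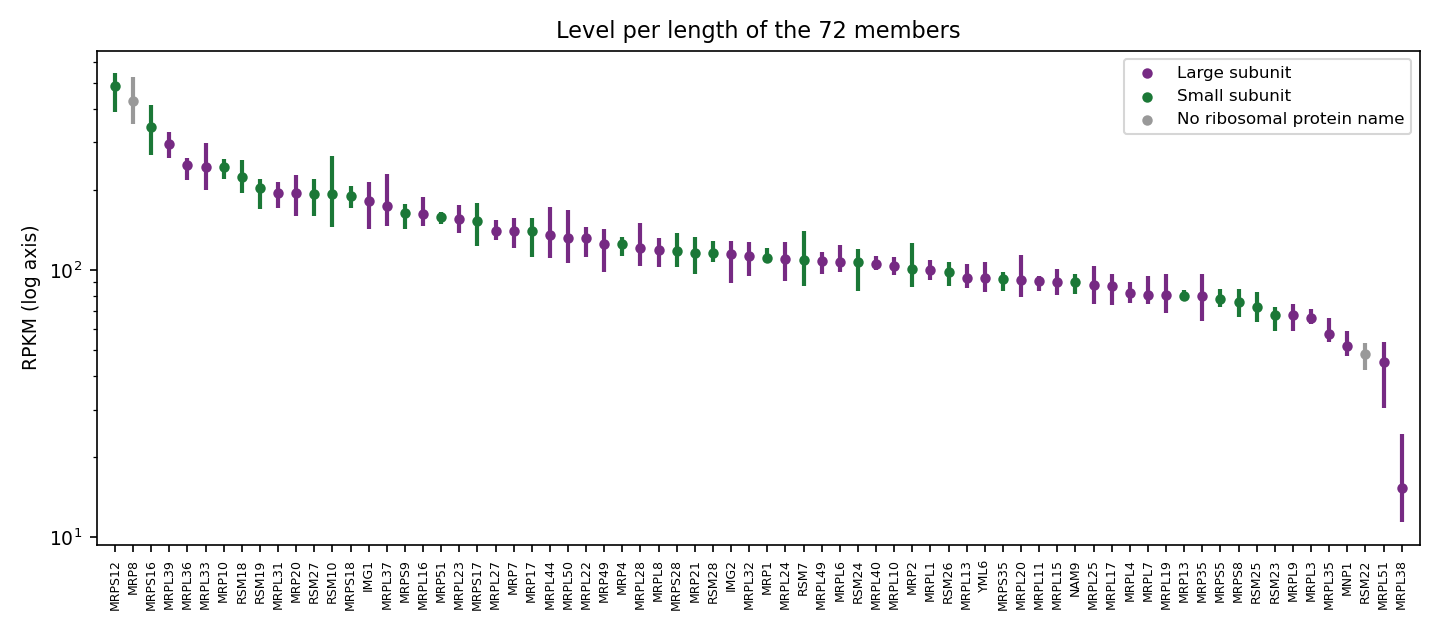
Mean RPKM of each of the 72 genes over 8 libraries, on a log axis, in falling order. Points are means, bars run from the lowest to the highest library, and colour marks the subunit. MRPS12 leads at 488 RPKM and MRPL38 closes at 15.3 RPKM, apart from its neighbours.

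Between the libraries the set moved little. Summed, the 72 genes had 6139 and 6021 CPM in the mutation strain HP libraries, 5957 and 6247 CPM in the control strain HP libraries, 6165 and 5984 CPM in the mutation strain nHP libraries and 5954 and 6309 CPM in the control strain nHP libraries. All groups overlapped after the composition correction, and the widest gap was between the 2 replicates of a control group. As shares of library totals, the mutation strain nHP libraries, at 0.596% and 0.547%, lay below all others, at 0.602% to 0.641%. Replicate 2 exceeded replicate 1 in 55 of the 72 genes in the HP control group and in 60 of 72 in the nHP control group, against 53.3% and 53.2% of all genes tested. The median gaps of the 72 genes there were 0.11 and 0.09 on the log2 scale, against -0.02 between the HP mutation libraries and -0.04 between the nHP mutation libraries. Both control gaps were larger in size than the median log2 fold change of the 72 genes in each of the 5 comparisons given below, which ran from -0.06 to -0.00. With library totals alone or on log2 RPKM this did not hold, since the median then reached -0.15 between the strains under nHP.

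Over the same libraries genes for making the cytosolic ribosome were summed too. Ribosome biogenesis genes summed to 18353 and 19188 CPM in the mutation strain HP libraries, 21570 and 26308 CPM in the control strain HP libraries, 33806 and 38028 CPM in the mutation strain nHP libraries and 22912 and 25215 CPM in the control strain nHP libraries. The mutation strain thus had the lowest sums under HP and the highest under nHP, with no overlap with its control in either condition. The sums of the 72 genes showed no such order.

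**Figure D3:**
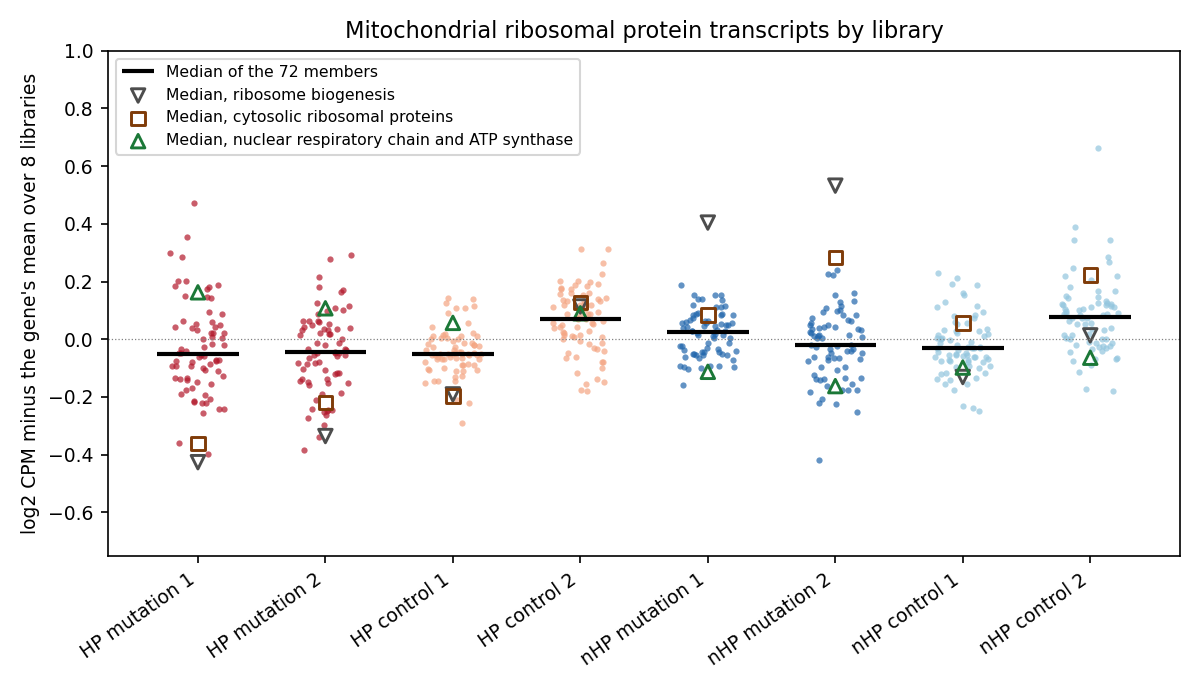
Log2 CPM of each of the 72 genes (points) in each library, minus the mean of that gene over the 8 libraries. Black bars are the medians of the 72 genes and open symbols the medians of 3 other gene groups. The medians of the 72 genes stay between -0.05 and 0.08, while those of ribosome biogenesis run from -0.43 to 0.53.

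Between the strains under nHP, 1 of the 72 genes passed the test. MRPL50 was lower in the mutation strain, and none was higher. This is 1.39% of the 72 genes, against 21.3% of all genes tested, of which 11.4% were higher and 9.91% lower (edgeR's quasi-likelihood test, Benjamini-Hochberg adjusted p below 0.05 over all genes). The median log2 fold change was -0.02 for the 72 genes and -0.02 for all genes. In 69 of the 72 genes (95.8%) the whole 95% interval of the fold change lay within 1.5-fold in either direction. The 3 whose interval reached further were MRPL38, MRPL44 (mL53) and MRPL51. Over all genes tested the share was 65.1%, and this count was chosen after the values were seen. Such shares, here and below, depend on precision as well as on change. The median SE here was 0.096 for the 72 genes and 0.112 for all genes. With library totals alone in place of the composition correction, 8 of the 72 genes were lower and 0 higher, against 20% of all genes lower and 6.79% higher, and the median of all genes moved to -0.15.

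MRPL50, which encodes bL9m, had 51.1 and 55.4 CPM in the mutation strain and 64.04 and 69.4 CPM in the control strain under nHP. Under HP it had 46.8 and 43.1 CPM in the mutation strain and 54.8 and 57.0 CPM in the control strain. In both conditions both mutation libraries lay below both control libraries. Over all genes tested, the 2 strains did not overlap in 65.2% under nHP and in 67.2% under HP. The log2 fold change was -0.32 ± 0.10 (SE, adjusted p = 0.0329) under nHP and -0.31 ± 0.10 (adjusted p = 0.0316) under HP, and it was the 1 gene of the 72 that passed in both strain comparisons. Its call under HP was lost when any library but HP control replicate 1 was left out, and its call under nHP when any but an HP control library was left out (adjusted p up to 0.222 over all of these). DESeq2 called MRPL50 in neither (adjusted p = 0.123 under nHP and 0.117 under HP). Without HP control replicate 1 or 2 more genes were called in both directions under nHP, among the 72 and over all genes tested.

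Between the strains under HP, 7 of the 72 genes passed the test, 3 higher and 4 lower in the mutation strain. That is 9.72%, against 28.7% of all genes tested, 14.7% higher and 14% lower. The median log2 fold change was -0.06 for the 72 genes and -0.05 for all genes. The 3 that were higher, RSM10, RSM7 and MRPL28, and the 4 that were lower, MRPS16, MRPL50, IMG1 and MRPS28, came from both subunits. Of these, 2 small-subunit genes were higher and 2 lower, and 1 large-subunit gene was higher and 2 lower. In 65 of the 72 genes (90.3%) the 95% interval lay within 1.5-fold, against 62.1% of all genes.

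RSM10 encodes uS10m, a protein of the head of the small subunit. It had 161 and 142 CPM in the mutation strain HP libraries, 112 and 107 CPM in the control strain HP libraries, 109 and 97.2 CPM in the mutation strain nHP libraries and 104 and 109 CPM in the control strain nHP libraries. The HP libraries of the mutation strain stood above all 6 others, and the other 3 groups overlapped. The log2 fold change was 0.47 ± 0.09 between the strains under HP (SE, adjusted p = 0.00409), a 1.39-fold difference, and -0.05 ± 0.10 under nHP (adjusted p = 0.762).

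RSM7 encodes uS7m, also of the small-subunit head. It had 102 and 92.9 CPM in the mutation strain HP libraries and 78.0 and 70.7 CPM in the control strain HP libraries, a log2 fold change of 0.39 ± 0.10 (SE, adjusted p = 0.0132). Under nHP it had 81.5 and 70.8 CPM in the mutation strain and 72.5 and 76.2 CPM in the control strain, which overlapped. MRPL28 encodes mL40, a large-subunit protein without a bacterial counterpart. It had 65.2 and 64.3 CPM in the mutation strain HP libraries and 53.4 and 50.2 CPM in the control strain HP libraries, a log2 fold change of 0.32 ± 0.10 (adjusted p = 0.0295). As with RSM10, its 2 HP libraries of the mutation strain were the highest of all 8.

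MRPS16 encodes bS16m. It had 96.7 and 103 CPM in the mutation strain HP libraries and 126 and 138 CPM in the control strain HP libraries, a log2 fold change of -0.40 ± 0.09 (SE, adjusted p = 0.00765). Under nHP it had 129.8 and 118 CPM in the mutation strain and 141 and 149 CPM in the control strain, groups that did not overlap but differed by -0.23 ± 0.09 without passing the test (adjusted p = 0.0916). IMG1 encodes bL19m, and its mutants lose the integrity of the mitochondrial genome, which gave the gene its name. It had 82.6 and 70.4 CPM in the mutation strain HP libraries and 94.9 and 95.4 CPM in the control strain HP libraries, a log2 fold change of -0.31 ± 0.09 (adjusted p = 0.0274). MRPS28, which encodes uS15m, had 86.6 and 91.4 CPM in the mutation strain and 101 and 113 CPM in the control strain under HP, a log2 fold change of -0.27 ± 0.09 (adjusted p = 0.0414).

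These calls differed in how far they held with other libraries or settings. RSM10 stayed past the threshold with each library left out in turn, at an adjusted p of up to 0.0471. RSM7 and MRPS16 lost it only without HP mutation replicate 1 (adjusted p = 0.105 and 0.1004). MRPL28, IMG1 and MRPS28 lost it in 3, 6 and 7 of the 8 cases, with log2 fold changes of 0.30 to 0.40, -0.41 to -0.20 and -0.31 to -0.17. The values nearest 0 were those of IMG1 without HP mutation replicate 2 and of MRPS28 without HP control replicate 2. DESeq2 did not call these 3 genes either (adjusted p of 0.0529, 0.0799 and 0.129), and MRPS28 failed under 9 of the 11 other settings tried. With only the 4 HP libraries fitted, MRPL50 and IMG1 failed as well (adjusted p = 0.106 and 0.116). Without HP control replicate 1 more genes were called in both directions, among the 72 and over all genes tested. Without any other single library fewer were called lower in both sets, and without HP mutation replicate 1 also fewer were called higher.

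**Figure D4:**
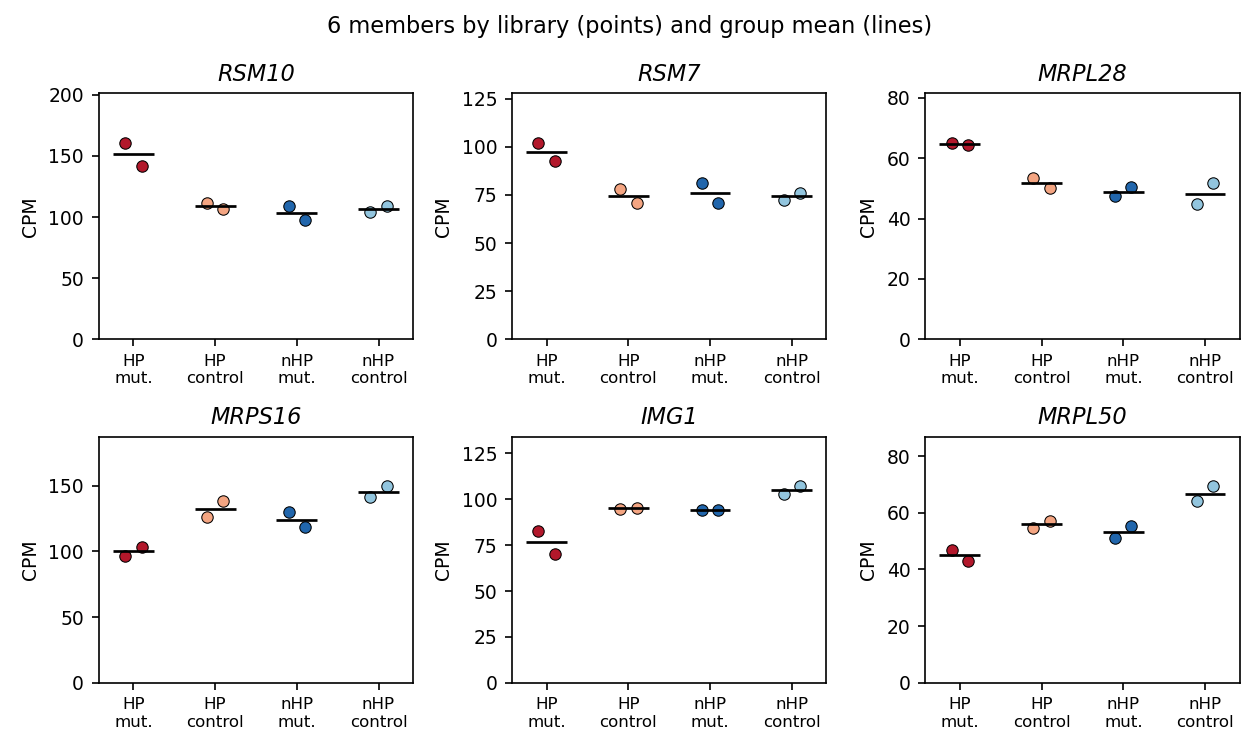
CPM of 6 of the genes in each library (points) with the group mean (line), on axes that start at 0. The HP libraries of the mutation strain are the highest for RSM10, RSM7 and MRPL28 and the lowest for MRPS16, IMG1 and MRPL50. For RSM10 they stand at 161 and 142 CPM against 97.2 to 112 CPM in the other 6 libraries.

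Between HP and nHP in the control strain, none of the 72 genes passed the test. Of all genes tested 1.96% did, 1.44% higher and 0.518% lower. An unadjusted p under 0.05 was found in edgeR for 2 of the 72 genes and for 721 of the 6174 genes tested. Neither DESeq2 nor limma called any of the 72 after adjustment. The median log2 fold change was -0.00 for the 72 genes and 0.00 for all genes, and in 71 of the 72 the 95% interval lay within 1.5-fold, MRPL38 being the exception.

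Between HP and nHP in the mutation strain, 12 of the 72 genes passed the test, 5 higher and 7 lower under HP. That is 16.7%, against 49.3% of all genes tested, 25.2% higher and 24.1% lower. The median log2 fold change was -0.06 for the 72 genes and 0.02 for all genes, and no gene of the 72 reached 1.5-fold in its estimate. In 66 of the 72 genes (91.7%) the 95% interval lay within 1.5-fold, against 47.3% of all genes. The HP and nHP libraries did not overlap in 52 of the 72 genes (72.2%), against 79.8% of all genes tested. The split of the calls depended on scaling. With library totals alone in place of the composition correction, 14 of the 72 genes were higher and 0 lower, against 34.1% of all genes higher and 17% lower, and the median of all genes moved to 0.14.

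The 5 that were higher under HP were RSM10, MRPL28, RSM7, MRP8 and MRPS17 (uS17m). RSM10 rose by 0.56 ± 0.09 on the log2 scale (SE, adjusted p = 0.000684), 1.47-fold, with 161 and 142 CPM under HP and 109 and 97.2 CPM under nHP. MRPL28 rose by 0.40 ± 0.10 (adjusted p = 0.00598), with 65.2 and 64.3 CPM under HP and 47.5 and 50.3 CPM under nHP. RSM7 rose by 0.36 ± 0.10 (adjusted p = 0.0115), with 102 and 92.9 CPM under HP and 81.5 and 70.8 CPM under nHP. These 3 were also the 3 that were higher in the mutation than in the control strain under HP, and both comparisons share the HP libraries of the mutation strain.

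MRP8, one of the 2 genes without a Puf3 element, had 342 and 318 CPM under HP and 281 and 255 CPM under nHP in the mutation strain, a log2 fold change of 0.30 ± 0.10 (SE, adjusted p = 0.0329). MRPS17 had 125 and 122 CPM under HP and 109 and 96.1 CPM under nHP, a log2 fold change of 0.27 ± 0.09 (adjusted p = 0.0299). In both genes, as in 79.8% of all genes tested, the HP and nHP libraries of the mutation strain did not overlap. DESeq2 did not call MRPS17 (adjusted p = 0.0635). With 1 library left out in turn, MRP8 lost its call in 4 of 8 cases, at log2 fold changes of 0.25 to 0.38 over all 8. MRPS17 lost its call in 3 (0.19 to 0.37) and RSM7 in 2 (0.28 to 0.47), while RSM10 and MRPL28 kept theirs.

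The 7 that were lower under HP were MRPL33 (uL30m), MRPS16, IMG1, MRP10 (mS37), RSM22, MRPL31 (mL60) and MRP4 (uS2m). MRPL33 had 53.2 and 51.2 CPM under HP and 66.9 and 70.0 CPM under nHP in the mutation strain, a log2 fold change of -0.39 ± 0.14 (SE, adjusted p = 0.0351). MRP10, a small-subunit protein with paired cysteines, had 61.9 and 64.7 CPM under HP and 77.5 and 77.9 CPM under nHP, a log2 fold change of -0.30 ± 0.10 (adjusted p = 0.0256). RSM22, the other gene without a Puf3 element, had 86.7 and 88.1 CPM under HP and 104 and 107 CPM under nHP, a log2 fold change of -0.27 ± 0.09 (adjusted p = 0.0287). In all 3 the HP libraries lay below the nHP libraries, and in 79.8% of all genes tested the groups did not overlap.

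MRPS16 had 96.7 and 103 CPM under HP and 129.8 and 118 CPM under nHP, a log2 fold change of -0.31 ± 0.09 (SE, adjusted p = 0.0152). IMG1 had 82.6 and 70.4 CPM under HP and 94.2 and 94.3 CPM under nHP, a log2 fold change of -0.30 ± 0.09 (adjusted p = 0.0202). MRPL31 and MRP4, which overlaps YHL005C by 2 bases, each had a log2 fold change of -0.26 (adjusted p = 0.0331 and 0.0228). With library totals alone none of the 7 was called, and with DESeq2 4 of the 72 genes were called lower, MRP10 (adjusted p = 0.0535), RSM22 (adjusted p = 0.0607) and MRPL31 (adjusted p = 0.0807) not among them. A filter of 10 CPM in 2 libraries ended the calls of MRPL33, RSM22, MRPL31 and MRP4 (adjusted p = 0.0537, 0.0580, 0.0680 and 0.0507). Without any 1 of the 4 libraries compared, fewer of the 72 genes were called lower. Fewer were called higher without either HP mutation library or nHP mutation replicate 2, and more without either HP control library. In each of these cases the share called over all genes tested moved the same way.

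**Figure D5:**
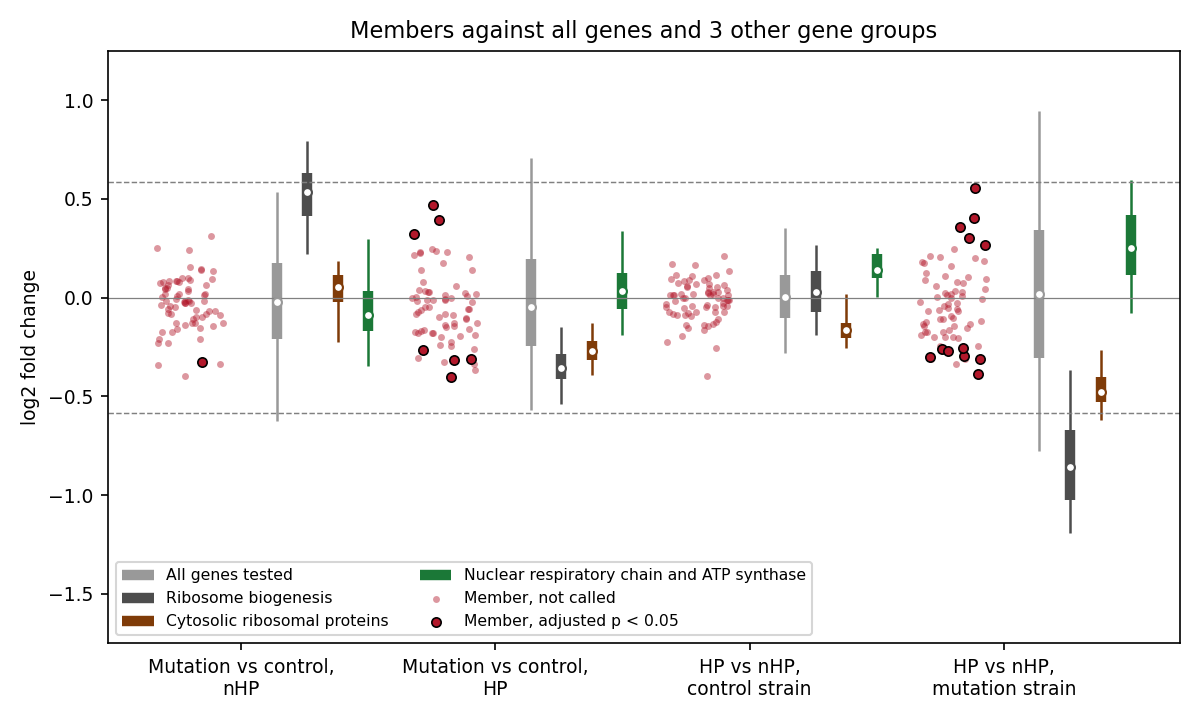
Log2 fold change of the 72 genes (points, with black rims where the adjusted p was below 0.05) in the 4 pairwise comparisons. Beside them, for all genes tested and 3 other groups, white dots are medians, thick bars quartiles and thin bars the 5th to 95th percentile, and dashed lines mark 1.5-fold. The 72 genes stay within the dashed lines in each comparison, while ribosome biogenesis has a median of 0.54 between the strains under nHP and of -0.86 between HP and nHP libraries of the mutation strain.

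The interaction, which subtracts the HP difference seen in the control strain from the one seen in the mutation strain, passed the test in 1 of the 72 genes (1.39%), against 29.2% of all genes tested, 14.6% in each direction. That gene was RSM10, at 0.52 ± 0.13 on the log2 scale (SE, adjusted p = 0.0146). The median over the 72 genes was -0.05 and over all genes 0.01. The 95% interval lay within 1.5-fold in 58 of the 72 genes (80.6%), against 35.9% of all genes. With library totals alone 7 of the 72 genes were higher, against 21.4% of all genes, and the median of all genes moved to 0.16. RSM7 had 0.36 ± 0.14 (adjusted p = 0.0763) and MRPL28 0.31 ± 0.14 (adjusted p = 0.125). Their HP differences were thus not shown to differ between the strains with the main settings. RSM7 stayed uncalled under 5 and MRPL28 under 7 of the 10 other settings that give the interaction. The call of RSM10 was lost without HP mutation replicate 1 (adjusted p = 0.0623) or nHP mutation replicate 2 (adjusted p = 0.0753). Without HP control replicate 1 more genes were called in both directions in the interaction, among the 72 and over all genes tested. Without HP control replicate 2 or nHP mutation replicate 1 more of the 72 were called higher, while a smaller share of all genes was.

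With the main settings 14 of the 72 genes passed the test in at least 1 of the 5 comparisons and 58 in none. Over all genes tested, 59.4% passed at least once. The genes always followed for their roles include several of the 58. MRPS12 had 239 and 230.1 CPM in the mutation strain and 227 and 231 CPM in the control strain under HP, and 215 and 198 CPM in the mutation strain and 214 and 248 CPM in the control strain under nHP. Its groups overlapped in both conditions. MRP1, one of the proteins that resemble superoxide dismutases, had log2 fold changes of 0.08 and 0.03 between the strains under nHP and HP and -0.01 between HP and nHP in the mutation strain. RSM26, the other, had 0.07, -0.16 and -0.20 in the same comparisons. With the main settings none of these 3 passed the test in any comparison. MRPS12 stayed uncalled between HP and nHP in the mutation strain under 7 of the 11 other settings tried.

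MRPL32, MRP20, MNP1, YML6, NAM9 and IMG2 also passed in none. Their log2 fold changes ran from -0.17 (IMG2) to 0.24 (NAM9) between the strains under nHP and from -0.19 (MNP1) to 0.24 (YML6) under HP. Between HP and nHP in the mutation strain they ran from -0.20 (MNP1) to 0.25 (MRP20). The SE of these estimates was 0.08 to 0.13. MRP20 came nearest to the threshold there, with an adjusted p of 0.0569. It stayed uncalled there under only 3 of the 11 other settings tried. YML6 stayed uncalled between the strains under HP in 6 of 11. That these genes passed in none thus holds for the main settings.

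Among the 72, short genes had lower medians than long ones in 3 of the 4 pairwise comparisons. Of the 72 genes, the 36 of up to the median coding length of 679.5 bases had a median log2 fold change of -0.07 between the strains under nHP, -0.15 under HP and -0.11 for HP against nHP in the mutation strain, against 0.04, -0.01 and -0.03 in the 36 longer genes. Over all genes tested the medians below and above that length were -0.06 and -0.01, -0.10 and -0.03, and -0.01 and 0.03. Between HP and nHP in the control strain the shorter and longer of the 72 genes had medians of -0.00 and -0.01. Those over all genes tested were -0.03 and 0.01. The part of transcript length in the lower calls was not tested.

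The wider machinery of mitochondrial translation was counted in the same way. Of the 6 genes followed and tested for mitoribosomal proteins under other names, none passed in any pairwise comparison. RML2, uL2m, passed in the interaction at -0.39 ± 0.13 (adjusted p = 0.0469). VAR1, the 1 ribosomal protein encoded in the mitochondrial genome, had at most 0.108 CPM in a library and was not tested. Between HP and nHP in the mutation strain, where 49.3% of all genes tested were called, 2 of 14 aminoacyl-tRNA synthetase genes were higher and 0 lower, with MSW1 at 0.37. Of 13 translation factors 1 was higher (GTF1, 0.44) and 1 lower (MEF1, an elongation factor, -0.34). Of 15 ribosome assembly and rRNA genes 2 were higher, led by the GTPase MTG1 at 0.49, and 1 lower (YTA12, a subunit of the m-AAA protease, -0.38).

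Of 18 translational activators 5 were higher, led by ATP22 at 0.42, and 2 lower, led by PET309 at -0.33, so that 38.9% of them were called. Of 8 genes of mitochondrial transcription and RNA turnover 1 was higher and 0 lower. This was RPM2, the protein subunit of mitochondrial RNase P, at 0.56 ± 0.08 (adjusted p = 0.000333). It had 174 and 179 CPM under HP and 124 and 115 CPM under nHP in the mutation strain. RPM2 was also called higher under HP in the control strain (0.39 ± 0.08, adjusted p = 0.0383) and between the strains under HP (0.35 ± 0.08, adjusted p = 0.0100). Medians of these lists lay between -0.08 and 0.10. The lists were chosen with earlier results of these data known.

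Groups outside mitochondrial translation differed more between HP and nHP in the mutation strain. Of 97 ribosome biogenesis genes 0 were higher and 92 lower, with a median log2 fold change of -0.86. SDA1, needed for export of the large ribosomal subunit from the nucleus, changed most at -1.36 ± 0.12 (adjusted p = 1.47e-05). It had 253 and 266 CPM under HP and 609 and 720 CPM under nHP. Of 131 tested cytosolic ribosomal protein genes 0 were higher and 113 lower, with a median of -0.48, although pairs of near-identical copies among them can share reads.

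Of 42 nuclear respiratory chain and ATP synthase genes 21 were higher and 0 lower, with a median of 0.25. NDE2, a mitochondrial external NADH dehydrogenase, led them at 2.35 ± 0.25 (adjusted p = 4.81e-05). The 72 genes chosen by name had 5 higher, 7 lower and a median of -0.06. MRP8 was among the 5 and RSM22 among the 7. The 72 genes are set beside these 3 lists as a description, without a test.

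Between the strains under nHP, 73 ribosome biogenesis genes were higher and 0 lower, with a median of 0.54 and NOP7 at 0.98. The cytosolic ribosomal protein genes had 0 higher and 1 lower, and the respiratory chain genes 3 higher and 2 lower. Under HP, 0 ribosome biogenesis genes were higher and 50 lower, with a median of -0.36. Under HP 0 cytosolic ribosomal protein genes were higher and 7 lower, with a median of -0.27, and 5 respiratory chain genes were higher and 0 lower. Between HP and nHP in the control strain none of the ribosome biogenesis or cytosolic ribosomal protein genes was called, and 1 respiratory chain gene, CYC1, was higher.

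The transcripts translated by the mitochondrial ribosome were hardly measured. Of 8 protein genes of the mitochondrial genome, 2 had enough counts to be tested, COX1 and OLI1. COX1 had 10.3 and 18.1 CPM in the mutation strain HP libraries, 10.1 and 9.74 CPM in the control strain HP libraries, 17.9 and 16.2 CPM in the mutation strain nHP libraries and 22.8 and 18.8 CPM in the control strain nHP libraries. It was lower under HP than under nHP in the control strain, at -1.07 ± 0.23 (adjusted p = 0.0371), and the mutation strain groups overlapped. The call was lost without any 1 of the 4 nHP libraries, at log2 fold changes of -1.22 to -0.92. It was also lost with limma on log2 RPKM after adding 1 or 0.1 (adjusted p = 0.132 and 0.133).

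OLI1, a subunit of the ATP synthase, had 18.9 and 52.4 CPM in the mutation strain HP libraries, 24.6 and 17.1 CPM in the control strain HP libraries, 21.2 and 24.2 CPM in the mutation strain nHP libraries and 47.9 and 37.2 CPM in the control strain nHP libraries. It passed in no pairwise comparison and in the interaction at 1.68 ± 0.51 (adjusted p = 0.0285). Its 2 HP mutation libraries differed more than 2-fold, and without replicate 2 of them the interaction was 0.78 (adjusted p = 0.0995). The call was also lost without either nHP mutation library or nHP control replicate 1 (adjusted p of 0.0918 to 0.0998), and with DESeq2 (adjusted p = 0.0990).

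The transcript of PUF3 itself passed the test in no comparison. It had 97.2 and 96.9 CPM in the mutation strain HP libraries, 106 and 104 CPM in the control strain HP libraries, 100.2 and 88.8 CPM in the mutation strain nHP libraries and 87.4 and 82.5 CPM in the control strain nHP libraries. The widest difference was 0.31 ± 0.09 between HP and nHP in the control strain (adjusted p = 0.140).

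Genes with the element outside the 72 were counted in the same way. Among tested genes outside the 72, 45.9% of the 821 with the element and 53.3% of the 4840 without it were called between HP and nHP in the mutation strain. Among the other mitochondrial genes followed here, 8 of 61 with the element were higher and 4 lower, and 24 of 48 without it were higher and 0 lower. The lists are spread unevenly over these groups, since 8 of the 42 respiratory chain genes have the element.

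The genes on either side of the called genes were looked up. Of the 24 neighbours of the 12 genes called between HP and nHP in the mutation strain, 12 were called in the same direction, 2 in the opposite one and 10 not at all, so that 58.3% of neighbours were called, against 49.3% of all genes tested. Between the strains under HP, 5 of 14 neighbours were called in the same direction, 1 in the opposite one and 8 not at all, 42.9% against 28.7% of all genes. ENA1, a sodium pump gene on the other side of a divergent gap of 1335 bases from RSM10, was higher by 2.10 ± 0.28 between the strains under HP (adjusted p = 0.000339) and by 1.46 ± 0.27 between HP and nHP in the mutation strain (adjusted p = 0.00116). It had 194 and 203 CPM in the mutation strain HP libraries, 63.5 and 30.5 CPM in the control strain HP libraries, 89.4 and 54.8 CPM in the mutation strain nHP libraries and 54.1 and 42.5 CPM in the control strain nHP libraries. Like RSM10, it was highest in the HP libraries of the mutation strain.

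STP1, a transcription factor gene 299 bases downstream of MRPL28 on the same strand, was higher by 0.30 ± 0.08 and 0.39 ± 0.08 in the same comparisons, close to the 0.32 and 0.40 of MRPL28. RRP12, a ribosome biogenesis gene 372 bases away from MRPS16 on its upstream side, was lower by 0.52 and 1.09 in them, on the log2 scale, beside -0.40 and -0.31 in MRPS16. MRP8 lies between LTV1, which changed by -0.76 between HP and nHP in the mutation strain, and SDH3, which changed by 0.57. RSM7 has an open reading frame beside it on the opposite strand, YJR114W, with 45 to 84 counts against 572 to 1096 counts in RSM7. Whether neighbours share reads or regulation with these genes was not tested.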

How the data were processed

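Per the labels' protocols, total RNA of 8 yeast samples was made into libraries with a NEBNext Ultra RNA kit. The submitters' processing notes name TopHat2 2.0.9. How reads were counted, on which strand and on which genome build, the sources used here do not say. The authors deposited whole-number counts per gene without normalization, and RPKM values, which per the deposited tables equal the counts divided by library total and 1 length per gene. A deposited summary of RPKM ranges was not used. Gene names, coordinates and sequences came from RefSeq's R64, whose coding lengths equalled those implied by the tables in 5573 of 5888 genes and in 70 of the 72 genes described. YML6 and MRPL44, the other 2, have introns. Table IDs matched a reference name for 6048 of 7126 genes.

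Counts were fitted with edgeR 4.0.16 in R 4.3.3. Genes were filtered by filterByExpr on the 4 groups (6174 left), libraries scaled by TMM, and 1 quasi-likelihood model of 4 group means was fitted to all 8 libraries, with 4 residual degrees of freedom. P-values are two-sided and Benjamini-Hochberg adjusted over all genes tested, and genes with adjusted p below 0.05 were called. Totals per library limit precision: 0 counts allow up to 3, and such floors cover counting error only. The model was tested on simulated data.

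The 72 genes and all lists were chosen with earlier results of these data known. Cytosolic ribosomal proteins are all genes named RPL or RPS and a number. Genes were named by rule: per pairwise comparison up to 5 called genes with the largest and up to 5 with the smallest log2 fold change whose groups did not overlap, up to 3 per direction for the interaction, the 3 highest and 3 lowest by RPKM, and MRP8, MRP1, RSM26, MRPL32, MRP10, MRPS12, MRP20, MNP1, YML6, NAM9, IMG1 and IMG2. From other lists the rule takes the most changed called genes. MRPL31, MRP4, MRPL44, MRPL3, PUF3, VAR1, COX1, OLI1, neighbouring genes and auxotrophic markers were added after their values were seen. Python 3.11.15 with matplotlib 3.10.9 drew the figures. Other settings tried were DESeq2 1.42.0, limma 3.58.1 (voom, or log2 RPKM after adding 1 or 0.1), size factors by RLE or from totals alone, TMM computed without the 50 most abundant genes, keeping all genes or those at 10 CPM in 2 libraries, a block for replicate number, fits to the compared libraries alone, and each library left out.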

Additional observations from a re-analysis of the deposited data

Results flagged for a closer look

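RSM10, which encodes uS10m, differed between the strains in its response: HP minus nHP in the mutation strain minus HP minus nHP in the control strain was 0.52 on the log2 scale (edgeR's quasi-likelihood test, adjusted p = 0.0146, 2 libraries a group). Within the mutation strain the HP difference was 0.56 and within the control strain 0.04. Both HP libraries of the mutation strain, at 161 and 142 CPM, lay above the other 6, which ran from 97.2 to 112 CPM. The difference stayed past the threshold in all 10 alternatives that give it, and it lost it without HP mutation replicate 1 (adjusted p = 0.0623) or without nHP mutation replicate 2 (adjusted p = 0.0753).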

How the results depend on the processing

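None of the 14 called genes changed direction under any alternative in a comparison where it was called, though medians of the 72 genes, all near 0, changed sign under some. The number of the 72 genes whose 95% interval lay within 1.5-fold moved under the alternatives. It ran from 66 to 70 between the strains under nHP and from 63 to 69 under HP. Between HP and nHP it ran from 69 to 71 in the control strain and from 64 to 69 in the mutation strain. In the interaction it ran from 51 to 62. It also moved with the library left out. Counts of called genes moved with most choices, and the cause of these moves was not tested.

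With library totals alone the median of all genes moved to -0.15 between the strains under nHP, to 0.14 between HP and nHP in the mutation strain and to 0.16 in the interaction. Of the 72 genes 8 were then lower under nHP (median -0.15), against 20% of all genes. In the mutation strain 14 were higher and 0 lower under HP (median 0.0669), against 34.1% and 17%. In the interaction 7 were higher (median 0.10), against 21.4%. On log2 RPKM after adding 1 or 0.1, 7 were lower under nHP (median -0.15 with either), against 18.4% of all genes. In the mutation strain 14 were higher and 0 lower (median 0.0657 after adding 1 and 0.0666 after adding 0.1). Over all genes 33.4% or 33.2% were higher there and 16% lower. In the interaction 6 were higher (median 0.11 with either), against 19.6%. RLE size factors gave 2 higher between the strains under nHP and 6 under HP, against 12.4% and 16% of all genes. TMM without the 50 most abundant genes gave 5 higher under HP, against 16.1%. A filter of 10 CPM in 2 libraries gave 2 lower under nHP, against 11.6% of all genes. It gave 8 higher and 2 lower under HP, against 19% and 11.1%. In the mutation strain it gave 10 higher and 3 lower, against 31.6% and 23.5%, and in the interaction 3 higher, against 19.2%. DESeq2 called 0 lower under nHP, 1 under HP and 4 in the mutation strain, against 7.08%, 10.3% and 22.5% of all genes. Fitting only the libraries compared gave 3 higher and 2 lower under nHP, against 14.8% and 13.6% of all genes. Under HP it gave 1 lower, against 5.56%. In the mutation strain it gave 8 higher and 11 lower, against 28.7% and 27.4%, and it gave no interaction.

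No label ties same-numbered libraries, and their deviations from group means correlated at 0.16 to 0.20 in 4 of the 6 pairs of groups and at -0.03 and 0.05 in the other 2, so the numbers were not taken as pairs. With the replicate block 3 genes were higher and 2 lower between the strains under nHP, against 15% and 13.3% of all genes. Under HP 7 were higher, against 17.8%, and in the mutation strain 8 were higher, against 27.4%. In the interaction 3 were higher and 1 lower, against 17.8% and 19.5%.

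With 1 library left out, the strain comparison under nHP had 0 to 3 higher and 0 to 3 lower, and that under HP 1 to 8 higher and 1 to 12 lower (median -0.0742 to 0.0188). HP against nHP gave 0 higher and 0 to 1 lower in the control strain (median -0.0644 to 0.0344) and 2 to 8 higher and 1 to 10 lower in the mutation strain. The interaction had 0 to 3 higher and 0 to 3 lower (median -0.0880 to 0.0335). The shares called over all genes tested also moved with the library left out. A group left with 1 library was assumed to vary like the others. At 48 to 92 counts a library, MRPL38 had intervals too wide to place it within 1.5-fold in any comparison.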
